A study of Mus musculus with 2 samples.

Results

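The regions described here are the shortest regions called for the histone mark H3K4me1 in mouse pre-B cells, those exactly 501 bases long, which is the size of a single window of the peak caller HOMER. They were taken from the deposited region list by length alone, on the 19 autosomes, and are called single-window regions below. They numbered 6698 of the 46934 autosomal regions and of 48130 regions in the whole list. The other 40236 autosomal regions are called longer regions. Chromosome X held another 171 regions of this length and chromosome Y 1, which are outside the set.

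The cells were pre-B cells, precursors that already make an immunoglobulin heavy chain and have yet to make a light chain, from the bone marrow of C57BL/6 (B6) mice of both sexes, aged 6 to 14 weeks. These mice carried a RAG1-/- genotype, so that they cannot rearrange their own antigen receptor genes, together with an already rearranged IgM transgene (RAG-/-µ+). The series held 2 samples of these same cells, a chromatin immunoprecipitation library with an H3K4me1 antibody and an input library without antibody, and the region list of the former was used here. The number of mice behind either library and the sex share were not given in the sources used here, and with 1 library per group no spread between replicates could be measured and no test was made. No expression or marker was measured in this series, so the cell type rests on the labels.

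H3K4me1 is monomethylation of lysine 4 on histone H3. In mammals it is laid down mainly by the KMT2C and KMT2D methyltransferases and marks active and primed enhancers, as well as the shoulders of active promoters. In B cell precursors, enhancers that carry it are bound by lineage factors such as PU.1, E2A, EBF1 and PAX5. A wide marked stretch and an isolated marked window therefore belong to the same assay signal but differ in how far along the chromatin the signal passes the calling threshold.

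Per the file header, sequencing of the H3K4me1 library gave 50945360 tags. A window of 500 bases had to hold 26 tags, beside 12.582 expected for a uniform genome, and windows that passed were stitched into regions of variable length. Regions also had to be 4-fold over input. The deposited file gives no tag count per region, and its score is 1 for every region, so the depth behind any one single-window region is unknown. Because length is also the measure that chose the members, and position and neighbours come from the same list, all values below are a description. Shares are given with Wilson 95% intervals and medians with exact binomial 95% intervals. Both cover counting error only and treat regions as independent, which neighbouring regions are not.

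Single-window regions formed a separate spike at the lower end of the length distribution. They made up 14.3% of autosomal regions (13.96 to 14.6%) but only 3.11% of the bases covered, 3355698 in all. No autosomal region had a length between 501 bases and the next value, 626 bases. Just outside the rule, 165 regions were 626 bases long, 157 were 627 bases and 158 were 628 bases. The whole class from 626 to 750 bases held 2952 regions (6.29%), fewer than the single length of 501 bases. Above the empty stretch the lengths came in a damped series of peaks. The bin from 625 to 650 bases held 1838 regions, that from 725 to 750 bases 113, and that from 750 to 775 bases 1003 again. Single-window regions stand at the lowest step of that series, as the plot of lengths shows.

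**Figure D1:**
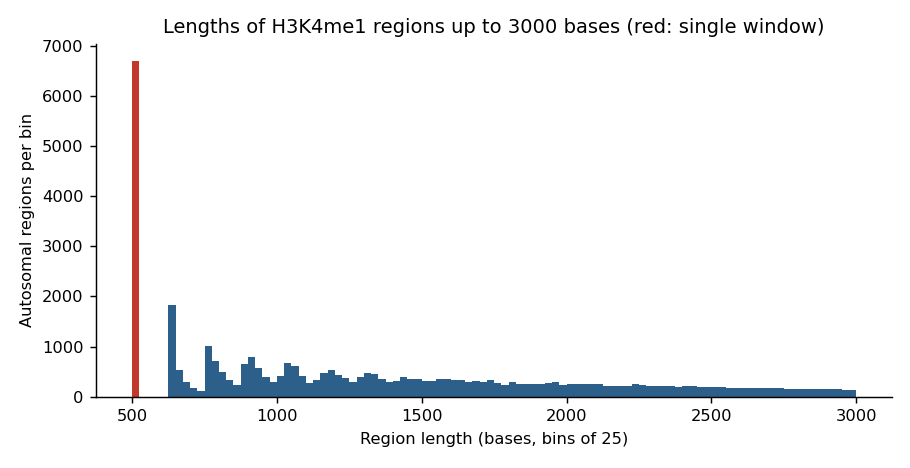
Number of autosomal H3K4me1 regions per bin of 25 bases of region length, from 500 to 3000 bases. The red bar holds the 6698 single-window regions, and the bins between it and the one that starts at 625 bases are empty. Peaks of decreasing height follow to the right.

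Single-window regions lay farther from the rest of the marked chromatin than longer regions did, by a moderate amount. Their median gap to the nearest region of any length was 4018 bases (3817 to 4249), beside 3007 bases (2946 to 3075) for longer regions. Measured to the nearest longer region, the medians were 4968 bases (4670 to 5229) for single-window regions and 3643 bases (3568 to 3728) for longer regions, each of the latter measured to another longer region. The quartiles were 1587 and 15392 bases for single-window regions, and 1185 and 11706 bases for longer regions.

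The closest spacing was less common among single-window regions than among longer regions. A longer region lay within 1 kb of 15.9% of them (1062 regions, 15.0 to 16.7%), beside 20.9% of longer regions (20.5 to 21.3%). Within 10 kb the shares were 65.8% and 71.7%, and within 50 kb 90.9% and 94.5%. The smallest gap in the list was 499 bases, and single-window regions came as close as 500 bases. Most of them were therefore part of a marked neighbourhood, and a tail lay far out.

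These gaps run from edge to edge. From midpoint to midpoint, which adds part of each region's own length to the gap, the medians were close and in the other order. They were 6758.5 bases for single-window regions and 6956.5 bases for longer regions. No intervals were computed for these midpoint medians, so their order may lie within counting error. The statement that single-window regions lie farther out thus holds for the unmarked stretch between regions, not for the distance between region centres. The short gaps that HOMER leaves are also limited by its minimum distance of 1000 bases between peaks, per the file header.

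Set beside other short regions, single-window regions differed less. Longer regions of under 1000 bases (8412 regions) had a median gap to the nearest longer region of 4680 bases (4418 to 4970), an interval that overlaps that of single-window regions. With the nearest region of at least 1000 bases as the common target, the medians were 7036.5 bases (6678 to 7362) for single-window regions and 6900.5 bases (6535 to 7216) for the other regions under 1000 bases. At the closest spacing a gap remained: 12.9% of single-window regions (12.2 to 13.8%) and 16.0% of the other short regions (15.2 to 16.8%) had such a target within 1 kb. To the nearest longer region, the shares within 10 kb were 65.8% (64.7 to 67.0%) for single-window regions and 66.1% (65.1 to 67.1%) for the other short regions, and within 50 kb 90.9% (90.2 to 91.6%) and 92.2% (91.6 to 92.7%).

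**Figure D2:**
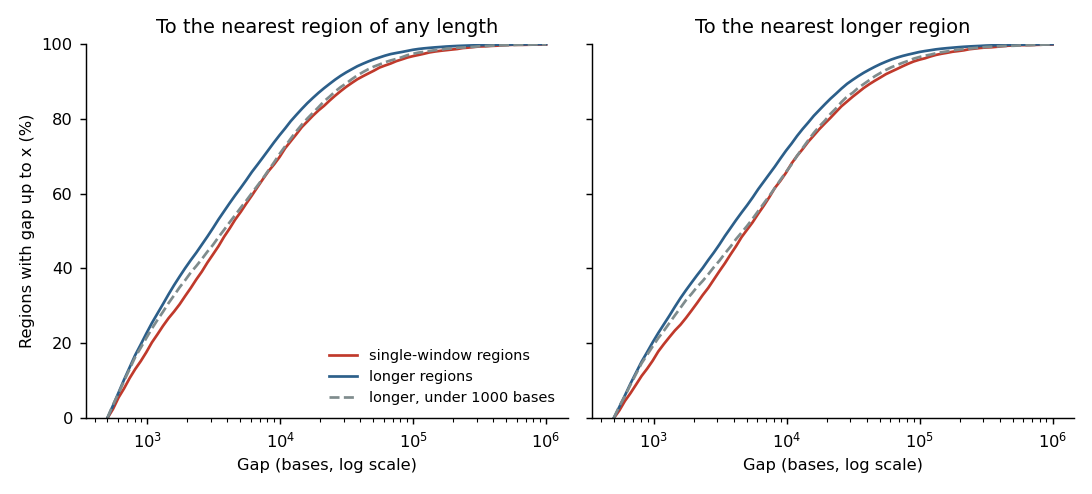
Cumulative share of regions (y axis, percent) whose gap to the nearest region of any length (left) or the nearest longer region (right) is at most the value on the x axis (bases, log scale). Single-window regions (red) run below longer regions (blue), with medians of 4018 and 3007 bases on the left, and longer regions of under 1000 bases (dashed) lie between them from 1 to 5 kb.

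The share of single-window regions was higher among more isolated regions. Among regions whose nearest longer region lay within 1 kb, 11.2% (10.6 to 11.9%) were single-window. The share was 14.9% at gaps from 2.5 to 5 kb, 15.1% at 10 to 25 kb, 19.6% at 50 to 100 kb and 24.5% (22.1 to 27.1%) beyond 100 kb. Between 2.5 and 25 kb it was nearly flat. Counting the nearest region of any length gave almost the same series, from 11.5% within 1 kb to 25.9% beyond 100 kb.

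Single-window regions were more often alone. No other region of any length lay within 50 kb of 483 of them, 7.21% (6.62 to 7.86%), beside 4.16% of longer regions (3.96 to 4.35%). At a distance of 10 kb, 30.0% of single-window regions and 24.1% of longer regions stood alone. The share alone within 50 kb was lower in each longer class, from 7.21% at a single window to 6.54% (5.70 to 7.49%) at 626 to 750 bases, 5.89% at 751 to 1000, 4.51% at 1001 to 2000, 3.63% at 2001 to 4999 and 0.711% at 5000 bases and over. The intervals of the single-window class and the next class overlap, so single-window regions sit at the end of a gradient.

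The members farthest from any other region lay in wide unmarked stretches. The first, on chromosome 5 from 81536588 to 81537088 of mm9, had its nearest region 3662 kb away. The second, on chromosome 6 from 76446889 to 76447389, had 3241 kb on its nearer side and 3747 kb on the other. On chromosome 11 a member from 14033868 to 14034368 was 2107 kb from its neighbour, which was itself 501 bases long. The other 2 of the 5 lay on chromosome 12 (50484548 to 50485048), with 1965 kb, and on chromosome 8 (30329748 to 30330248), with 1812 kb to another single-window region. Genes, assembly gaps and mappability at these positions were not analysed here.

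Nearness to broad marked regions did not set single-window regions apart from longer regions as a whole. A directly neighbouring region of at least 5000 bases lay within 10 kb of 748 single-window regions, 11.2% (10.4 to 11.9%), and of 11.8% (11.5 to 12.1%) of longer regions, with overlapping intervals. Among regions that had any direct neighbour within 10 kb, the shares were 15.9% (14.9 to 17.0%) and 15.5% (15.1 to 15.9%). For neighbours of at least 10000 bases the shares were 2.93% and 3.21%, and for a broad neighbour within 1 kb 2.63% and 2.55%.

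By length class, however, the share next to a broad region did not follow a single direction. It was 11.2% at a single window, 10.5% (9.41 to 11.6%) at 626 to 750 bases, 9.22% (8.48 to 10.02%) at 751 to 1000, 9.16% (8.69 to 9.64%) at 1001 to 2000, 12.3% (11.8 to 12.9%) at 2001 to 4999 and 23.1% (21.9 to 24.4%) at 5000 bases and over. Single-window regions were thus both more often alone and more often beside a broad region than regions of 751 to 2000 bases, and the intervals for the broad neighbour do not overlap those of the latter classes. The similar value for longer regions as a whole is an average over low middle classes and a high broad class.

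**Figure D3:**
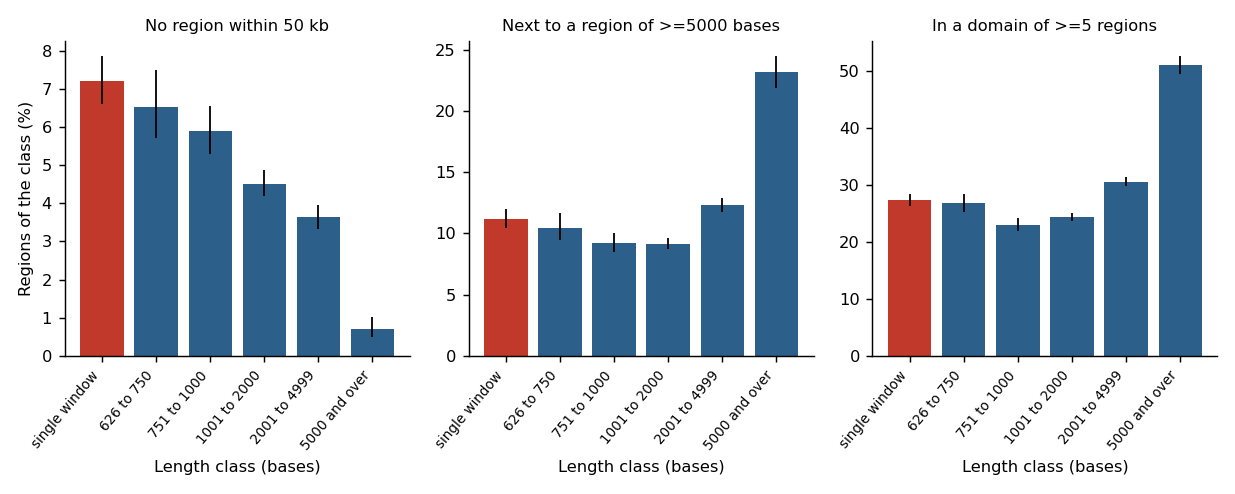
Share of each length class (percent, with Wilson 95% intervals) that has no region within 50 kb (left), has a direct neighbour of at least 5000 bases within 10 kb (middle), or lies in a domain of 5 or more regions (right), with length classes in bases on the x axis. Single-window regions (red) have the highest bar on the left at 7.21%, and in the other panels stand above the classes of 751 to 2000 bases and far below that of 5000 bases and over.

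Seen from the broad side, 18.2% of regions of at least 5000 bases (769 of 4221, 17.1 to 19.4%) had a single-window region as direct neighbour within 10 kb. The share was 13.4% for all longer regions. By class it ran from 11.5% (11.01 to 12.1%) at 1001 to 2000 bases to 14.2% at 2001 to 4999. Broad regions also lay closest to regions of any length, with a median gap of 1899 bases beside 2840 to 4018 in the other classes. The gap itself was alike: where a single-window region neighboured a broad one, the median gap was 2337 bases (2147 to 2636, 814 gaps), and where a longer region did, 2355.5 bases (2285 to 2442, 5050 gaps). The regions directly beside single-window regions had a median length of 1661 bases (1616 to 1712), those beside longer regions 1607 bases (1594 to 1628).

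A small group lay between 2 broad regions. Both direct neighbours reached 5000 bases within 10 kb for 66 single-window regions, 0.985% (0.775 to 1.25%), beside 0.768% (0.687 to 0.858%) of longer regions. The tightest, on chromosome 5 from 66268414 to 66268914, lay 657 bases after a region of 10963 bases and 760 bases before one of 5652 bases. On chromosome 8 a member from 73270772 to 73271272 lay 525 and 946 bases from regions of 5794 and 9171 bases. The member on chromosome 1 from 88410383 to 88410883 lay 758 bases from each of its neighbours, which were 25118 and 11271 bases long, the widest pair of the 5. The other 2 lay on chromosome 4 (132720472 to 132720972), with gaps of 907 and 710 bases, and on chromosome 17 (29275172 to 29275672), with gaps of 1146 and 606 bases. In each of these 5 places a single marked window was set off from broad marked stretches by a short unmarked gap on either side.

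Filling of gaps between longer regions was no more common for single-window regions than for longer ones. Longer regions lay within 2.5 kb on both sides of 324 single-window regions, 4.84% (4.35 to 5.38%), and of 5.34% (5.13 to 5.56%) of longer regions. Where both direct neighbours were longer regions, whatever the gap (4753 single-window regions), the nearer gap was a median 20.3% of the sum of both gaps (19.5 to 21.0%), beside 19.1% (18.8 to 19.4%) for longer regions. The nearer of both neighbours was the longer one for 52.1% of single-window regions (50.6 to 53.5%) and for 50.9% (50.3 to 51.4%) of longer regions, so nearness to one side went with the neighbour's length only slightly, if at all.

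Single-window regions mostly stood singly, but a direct neighbour within 10 kb was single-window slightly more often beside them than beside longer regions. Of the direct neighbours of single-window regions within 10 kb, 14.6% were single-window, and of those of longer regions, 13.1% were. Among all autosomal regions the share was 14.3%, which also counts regions with no neighbour within 10 kb. Another single-window region was the direct neighbour within 10 kb of 914 single-window regions, 13.6% (12.8 to 14.5%), and of 13.4% (13.0 to 13.7%) of longer regions. Among regions with any direct neighbour within 10 kb the shares were 19.5% (18.4 to 20.6%) and 17.6% (17.2 to 18.0%), with intervals that do not overlap. As units joined over gaps of up to 10 kb with no longer region between, 5784 stood singly, 388 pairs and 42 triples were found, and 3 runs reached 4, the longest. The median distance to the nearest other single-window region was 52350 bases (50235 to 54597), and longer regions were 49890 bases (48988 to 50791) from their nearest one.

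The 3 runs of 4 differed in their surroundings. On chromosome 8, members from 73067452 to 73082587 were flanked by regions of 2175 and 2627 bases at gaps of 1671 and 1232 bases. On chromosome 10, the run from 25102661 to 25110164 ended 3607 bases before a region of 22103 bases. On chromosome 19, the run from 16397583 to 16404160 lay between regions of only 647 and 757 bases, at gaps of 4826 and 23685 bases. Each run thus held 4 separate windows past the threshold within a stretch of under 20 kb.

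Stitching all autosomal regions over gaps of up to 10 kb gave 22166 domains. Single-window regions were most frequent in domains of 1 region, at 17.1% (16.5 to 17.8%), and were 13.2% of the regions in domains of 2, 13.3% in domains of 3 or 4 and 13.0% (12.4 to 13.7%) in domains of 5 to 9. In domains of 10 or more regions the share was 14.7% (13.6 to 15.9%). Domains of 5 or more regions held 1830 single-window regions, 27.3% of them (26.3 to 28.4%), beside 29.3% (28.8 to 29.7%) of longer regions. Of the 1902 such domains, 1157 (60.8%) held at least 1 single-window region. That share was not set beside one expected from the number of regions per domain. Within them, single-window regions lay at a domain's outer edge in 27.8% of cases (25.8 to 29.9%) and longer regions in 28.0% (27.2 to 28.8%). Domains made of single-window regions alone numbered 2109, of which 2008 were a lone window.

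Across chromosomes, single-window regions followed the longer regions closely. Their density per Mb between the first and last region was 2.82 ± 0.414 (mean ± SD over 19 autosomes, which are not replicates), from 2.21 on chromosome 3 to 3.93 on chromosome 11, a ratio of 1.78. The density of longer regions varied by 2.03 times. Pearson's r between both densities was 0.92 and Spearman's rho 0.92 over the 19 autosomes, which share 1 library, its depth and its calling thresholds.

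The single-window share was therefore alike on most autosomes. It averaged 14.3 ± 1.01% (mean ± SD), and the intervals of 17 of the 19 autosomes held the pooled share of 14.3%. Chromosome 16 had the highest share at 15.6% (13.97 to 17.4%) and chromosome 19 the lowest at 12.02% (10.5 to 13.7%), a ratio of 1.30 (counting interval 1.09 to 1.54, with both chromosomes picked as extremes). Chromosome 17 came next to the lowest at 12.1% (10.8 to 13.5%) and chromosome 11 followed at 13.1%. These 3 are the autosomes densest in longer regions, and over the 19 autosomes the share was lower where longer regions were denser (Pearson's r -0.80, Spearman's rho -0.68, with the density also part of the share's denominator). Chromosome X, outside the set, had only 1.06 such regions per Mb but the same share, 14.3% (12.4 to 16.4%).

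**Figure D4:**
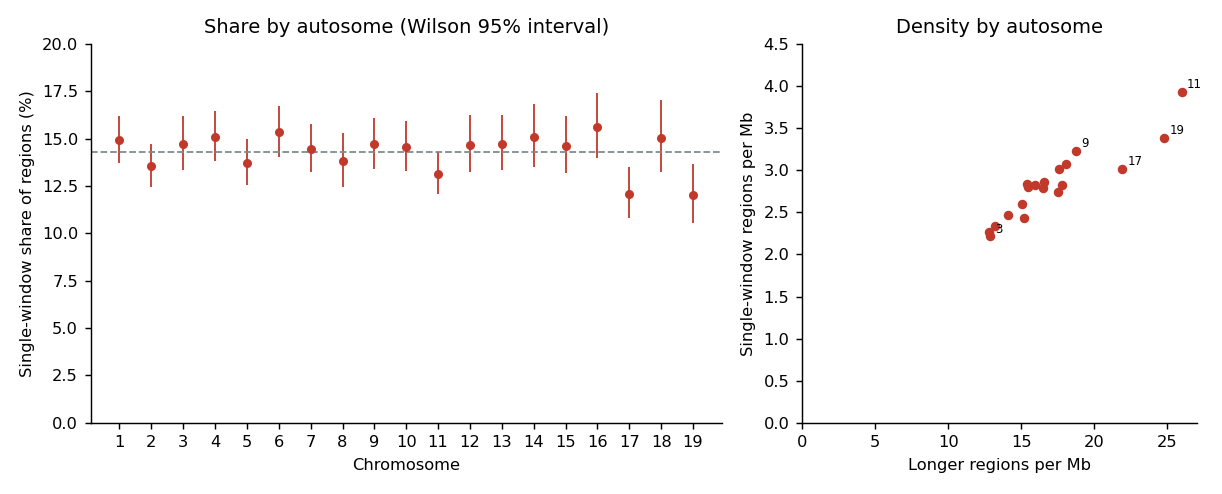
Left, share of single-window regions among all regions of each autosome (percent, Wilson 95% intervals; dashed line, the pooled 14.3%). Right, single-window regions per Mb against longer regions per Mb, 1 point per autosome, with the points rising together from chromosome 3 to chromosome 11 and chromosomes 17 and 19 lying low for their density.

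Surroundings of single-window regions also differed between chromosomes. These values rest on 197 to 490 single-window regions per autosome, and the extremes were picked from 19 autosomes without intervals. Whether they varied more than the share was not tested, and longer regions were not measured this way. The median gap to the nearest longer region ran from 3729.5 bases on chromosome 17 to 7402 bases on chromosome 18. The share alone within 50 kb ran from 3.65% on chromosome 11 to 11.2% on chromosome 14. A broad neighbour was found for 6.83% on chromosome 18 and for 14.9% on chromosome 7. Along the chromosomes the share stayed between 13.9% and 14.5% in each of 5 equal parts of the span. The last part, at the highest coordinates, held 27.2% of all single-window regions. It also held the most regions of any length, 12621 of 46934.

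In windows of 1 Mb the relation with local density was plainer. Of 1989 windows that held a region midpoint, 1653 (83.1%) held a single-window region. That share was not set beside one expected from the number of regions per window. In 5 equal classes of windows by their number of longer regions, the single-window share was 25.6% (23.0 to 28.2%) in the sparsest, then 18.3%, 15.4% and 14.4%, and 12.5% (12.1 to 13.0%) in the densest, a ratio of 2.04 between the ends. Part of this follows from ranking windows on the longer regions alone. Ranked on all regions, a choice made after seeing the data, the shares were 20.7% (18.4 to 23.3%), 17.7%, 14.7%, 14.5% and 13.04% (12.6 to 13.5%), a ratio of 1.59.

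Numbers per window tell the other side. The sparsest class held 0.693 single-window regions per window and the densest 6.79, so members were most numerous in the windows where their share was lowest. In 39 windows there were single-window regions and no longer region, with 43 members in all. An expected count, given how many more longer regions there were, was not computed. Counts of single-window regions per window had a variance 2.69 times their mean, and counts of longer regions 14.1 times. This ratio also depends on the mean count, and longer regions were far more numerous (40236 beside 6698). The ratios therefore do not show which group was spread more evenly, and that was not tested. The window with the most members lay on chromosome 6, from 120000001 to 121000000, with 16 single-window and 47 longer regions.

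The deposited list itself is not sorted by position or by length, and its order is not explained in the header. Across all 48130 regions, place in the list and length had a Spearman rank correlation of -0.97, with the longest regions at the top. Single-window regions had a median place of 44601 and longer regions of 20346. They made up 95.3% of autosomal regions in the last 10% of the list, which held 65.8% of all members, and only 2 of them stood in the first 24065 places. Because members were chosen as the shortest regions, these late places follow largely from that choice. Since all members have the same length, their places among each other reflect something other than length.

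A number at the end of each region's name ordered the members in nearly the same way. Within each autosome the Spearman correlation between that number and the place in the list was 0.92 to 0.97 for single-window regions, and only 0.13 to 0.24 for longer regions. Long stretches of the list, 279 of at least 50 regions, ran in chromosome and position order before starting over. They held 34877 of the 48130 regions of all chromosomes, most of them longer regions. Of the 6870 single-window regions of all chromosomes, 6810 stood in such stretches. What the place or the number measures is not given in the sources used here.

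Members listed early lay nearer to longer regions than members listed late. In 5 equal groups by place, the median gap to the nearest longer region was 4209 bases (3835 to 4875) in the first, then 4674.5, 5064 and 5118.5 bases, and 5641 bases (4978 to 6330) in the last. Grouped by the number in the name, the medians were 4351, 4636, 5157, 5604.5 and 5148 bases, without a steady rise to the end. The share with a broad neighbour was nearly constant by place, between 10.7% and 11.9%, and the share alone moved between 6.12% and 8.44% with no order. The share in domains of 5 or more regions was 25.0% (22.8 to 27.4%) in the first group and 28.7% (26.3 to 31.2%) in the last.

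**Figure D5:**
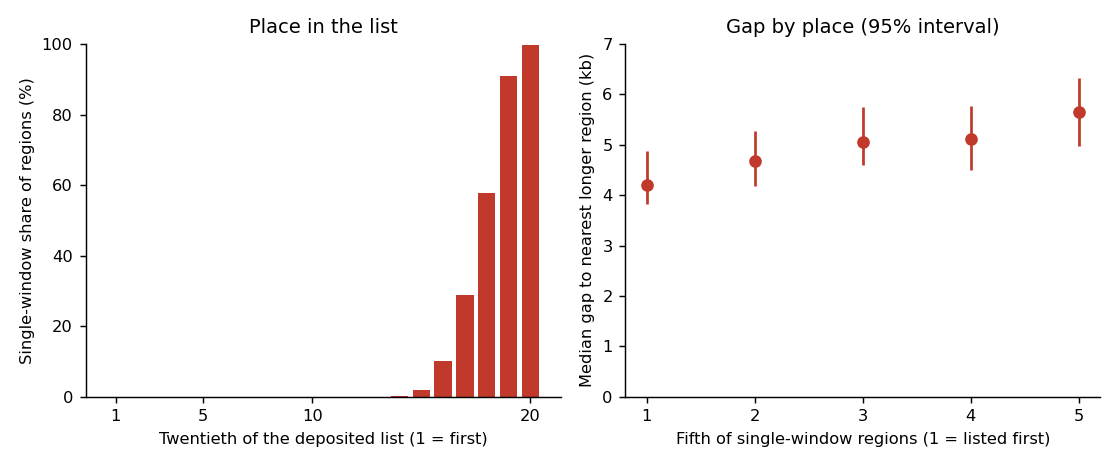
Left, share of single-window regions among autosomal regions in each twentieth of the deposited list (percent; 1 is the top). Right, median gap from single-window regions to the nearest longer region (kb, exact binomial 95% intervals) in 5 equal groups by place, rising from 4209 to 5641 bases.

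A few members stood far ahead of the rest of their length, and were picked for that. The earliest, at place 6481, lay on chromosome 8 from 20019382 to 20019882, with 857 kb and 3150 kb to its neighbours, and its name ended in the number 6, beside 36085 for the named member on the same chromosome between broad regions. The second, at place 22219, lay on chromosome 9 from 51513281 to 51513781, 58.8 kb from the nearest longer region. Of the next 3, 2 lay on chromosome 17 (15098777 to 15099277 at place 25722, and 13244564 to 13245064 at place 32581) and 1 on chromosome 15 (74965734 to 74966234 at place 31036). The repeat content and input coverage at these positions were not analysed here.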

How the data were processed

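H3K4me1 and input libraries of mouse pre-B cells were each made from 1 to 10 ng of DNA with 18 PCR cycles and read as single-end reads of 100 bases, per the labels' protocols. Bowtie 0.12.9, HOMER 4.7 and the build mm9 were used, per the submitters' processing notes. Regions were called with HOMER findPeaks in histone style against input, per the file headers. The deposited score is 1 for all regions and was not used.

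Autosomal regions were sorted by position. Members have the shortest length in the list. Positions are printed counting from 1. Direct neighbours are the next regions on either side. The members and the groupings were chosen with earlier results of these data known. Named regions are the 5 members farthest from any region, the 5 tightest between 2 broad regions, the 3 longest runs, the fullest window and the extreme chromosomes. The early-listed members and the values by place were chosen after their values were seen. Gap and neighbour functions were tested on simulated data. Alternatives covered length rules, gaps, chromosomes and windows. Only GRCm38.p6 tables were at hand, so no gene or sequence is given. Python 3.11.15, numpy 2.4.6, pandas 2.3.3, scipy 1.17.1, statsmodels 0.14.6 and matplotlib 3.10.9 were used.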

Additional observations from a re-analysis of the deposited data

How the results depend on the processing

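No paired analysis was possible because there is 1 library per group. The single-window share of 14.3% became 20.6% with regions up to 750 bases included and 11.8% after joining gaps under 2.5 kb. The median gap to a longer region was 4968 bases beside 3643 for longer regions. With longer taken to mean at least 1000 bases, for target and comparison group alike, it became 7036.5 beside 4804.5. All longer regions measured to that same target had a median of 5159 bases. From midpoint to midpoint it became 6758.5 beside 6956.5, where the order turned by a small amount and no intervals were computed. For regions up to 750 bases it became 5653 beside 3942.5. The share next to a broad region, 11.2% beside 11.8%, became 22.7% beside 24.1% at 3000 bases, 2.93% beside 3.21% at 10000 bases, 8.54% beside 9.11% at gaps up to 5 kb, 16.5% beside 16.8% at any gap, and 15.9% beside 15.5% among regions with a direct neighbour, an alternative added after seeing the data. The share alone, 7.21% beside 4.16%, became 14.4% beside 9.94% at 25 kb, 3.22% beside 1.54% at 100 kb, and 9.06% beside 5.48% counting longer neighbours only; it stayed higher in single-window regions in each. The share with a single-window neighbour, 13.6% beside 13.4%, became 9.23% beside 9.60% at 5 kb, where its order turned. These are shares of all regions of a group. Fewer single-window regions (54.9%) than longer regions (61.4%) had any region within 5 kb. In the other settings the shorter group stayed higher. The shares were 28.9% beside 25.9% at any gap and 19.3% beside 18.9% for regions up to 750 bases. Among regions with a direct neighbour (added) they were 19.5% beside 17.6%. The share in domains of 5 or more regions, 27.3% beside 29.3%, became 11.1% beside 11.4% with stitching over 5 kb and 50.1% beside 54.2% over 20 kb. The ratio of sparsest to densest windows, 2.04, became 2.497 in windows of 500 kb and 1.59 ranked on all regions (added). Values with all chromosomes moved by less than their counting intervals. Tags per region were not used, so how near any single-window region lies to the calling threshold is unknown.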
